A study of Mus musculus with 6 samples.

Results

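The Frizzled genes (Fzd) encode the receptors of Wnt signalling, and their promoters were examined for occupancy by Plakoglobin and β-catenin in differentiating mouse keratinocytes, the main cells of the epidermis. Promoter sequences whose gene symbol in the deposited tables, or current symbol by accession, begins with Fzd and a digit were taken. This rule used gene names and no measured value, but the family was chosen with earlier results of these data known. The rule gave 9 of the 26200 promoter sequences with a value, for 8 of the 10 Frizzled genes of the RefSeq gene table: Fzd1, Fzd2 (2 sequences), Fzd3, Fzd4, Fzd6, Fzd7, Fzd8 and Fzd10. Fzd5 was not analysed here, and a sequence that only a peak list assigns to Fzd9 is described apart at the end.

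The study compared 2 antibodies in 1 kind of cell by chromatin immunoprecipitation on promoter arrays (ChIP-chip). All 6 arrays carried chromatin of C57BL/6J keratinocytes grown to confluence and then kept for 4 days in high-calcium medium, which starts terminal differentiation. Proteins were crosslinked with 2 mM di-succinimidyl-glutarate and 1% formaldehyde, and 3 arrays carried DNA recovered with a Plakoglobin antibody and 3 with a β-catenin antibody. The ChIP DNA (Cy5) was hybridised together with total input DNA (Cy3), and each value is therefore relative to input. The labels give no sex, age or passage and do not say whether arrays come from separate cultures, so p-values measure the spread between these arrays, which may be technical. Promoter occupancy does not measure expression, and the labelled cell type was therefore not checked against marker levels.

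Frizzled receptors span the membrane several times and bind Wnt proteins through a cysteine-rich outer domain. Together with the co-receptors Lrp5 and Lrp6 they act through Dishevelled to stop the breakdown of β-catenin, which then binds TCF/LEF factors on DNA. They also signal without β-catenin, as in the planar polarity pathway that orients hair follicles in mouse skin, for which Fzd6 is known. Plakoglobin (γ-catenin) is a close relative of β-catenin and a component of desmosomes and adherens junctions.

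For 4 of the 8 genes, those for which the RefSeq promoter table (build GRCm38.p6) holds a window, the 250 bases before and 50 after the annotated start are shown. Fzd1 and Fzd10 are the genes with a window that carried Plakoglobin peaks, and Fzd4 and Fzd7 are shown as genes without a peak. The peaks were listed 371 to 850 bp (Fzd1) and 970 to 1299 bp (Fzd10) upstream of the array's start sites. If those are the annotated starts, the windows do not reach the peaks. Capitals mark CTTTGA or CTTTGT on either strand, the core letters of the TCF/LEF motif.
Fzd1 (chr5:4758167-4758466, minus strand): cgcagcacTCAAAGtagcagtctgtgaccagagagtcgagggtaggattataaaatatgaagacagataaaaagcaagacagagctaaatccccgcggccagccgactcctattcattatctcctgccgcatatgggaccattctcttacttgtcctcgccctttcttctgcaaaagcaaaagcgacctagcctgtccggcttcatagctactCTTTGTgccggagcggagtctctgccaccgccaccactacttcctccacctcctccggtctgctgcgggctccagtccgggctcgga
Fzd10 (chr5:128600856-128601155, plus strand): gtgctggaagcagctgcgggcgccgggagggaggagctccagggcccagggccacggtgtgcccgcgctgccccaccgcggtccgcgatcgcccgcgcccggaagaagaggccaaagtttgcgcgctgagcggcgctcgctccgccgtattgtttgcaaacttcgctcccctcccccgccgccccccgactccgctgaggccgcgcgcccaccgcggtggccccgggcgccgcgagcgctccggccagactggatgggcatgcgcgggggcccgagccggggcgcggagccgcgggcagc
Fzd4 (chr7:89404116-89404415, plus strand): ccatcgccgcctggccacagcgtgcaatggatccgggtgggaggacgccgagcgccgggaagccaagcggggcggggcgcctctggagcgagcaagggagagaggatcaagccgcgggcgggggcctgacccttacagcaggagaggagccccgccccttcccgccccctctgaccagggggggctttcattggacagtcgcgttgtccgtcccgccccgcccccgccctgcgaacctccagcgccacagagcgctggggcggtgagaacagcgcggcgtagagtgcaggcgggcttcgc
Fzd7 (chr1:59481897-59482196, plus strand): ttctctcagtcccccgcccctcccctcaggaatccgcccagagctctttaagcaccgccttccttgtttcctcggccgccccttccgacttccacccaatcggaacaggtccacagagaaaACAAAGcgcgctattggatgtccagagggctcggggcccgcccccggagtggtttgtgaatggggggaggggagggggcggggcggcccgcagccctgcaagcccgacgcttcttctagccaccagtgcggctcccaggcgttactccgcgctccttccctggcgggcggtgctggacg

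The Fzd1 window held the motif at 2 places, beginning 242 and 37 bases before the start, and the Fzd7 window at 1, beginning 129 bases before the start. The windows of Fzd4 and Fzd10 did not hold these letters. Among all 32851 RefSeq windows, 31.2% held at least 1 match, and 16.9% held 1 of the longer forms CTTTGAA or CTTTGAT or CTTTGTA or CTTTGTT, each of which contains 1 of the shorter forms. Of the 4 windows shown, Fzd7 held a longer form. The Fzd10, Fzd4 and Fzd7 windows were rich in G and C (77.7%, 72.7% and 66.7%), with 45, 32 and 24 CpG dinucleotides, whereas Fzd1 had 54.0% and 16. The median of the table was 52.7% and 7 CpG. No label or header names the build of the array coordinates, so the windows are not placed on the array's sequences.

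Values are log2 ratios of ChIP over input, averaged by the authors over the probes of a promoter sequence and here centred on each array's median promoter, so that 0 is the median promoter of that array. Group values are mean ± SD over 3 arrays. Arrays of the same number deviated together from their group means over all promoters. The correlation across promoters was 0.203 for number 1, 0.235 for number 2 and 0.218 for number 3, and -0.154 to -0.051 for arrays of unequal number. The 3 deviations of a group sum to 0 at each promoter. The negative values therefore follow on average from the positive ones and are not separate evidence. The median SD over the probes of a promoter was 0.663 and 0.750 on the arrays numbered 2 and between 0.265 and 0.359 on the others. The authors' peak lists held 330 to 2684 peaks. The labels do not say what arrays of the same number share.

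**Figure D1:**
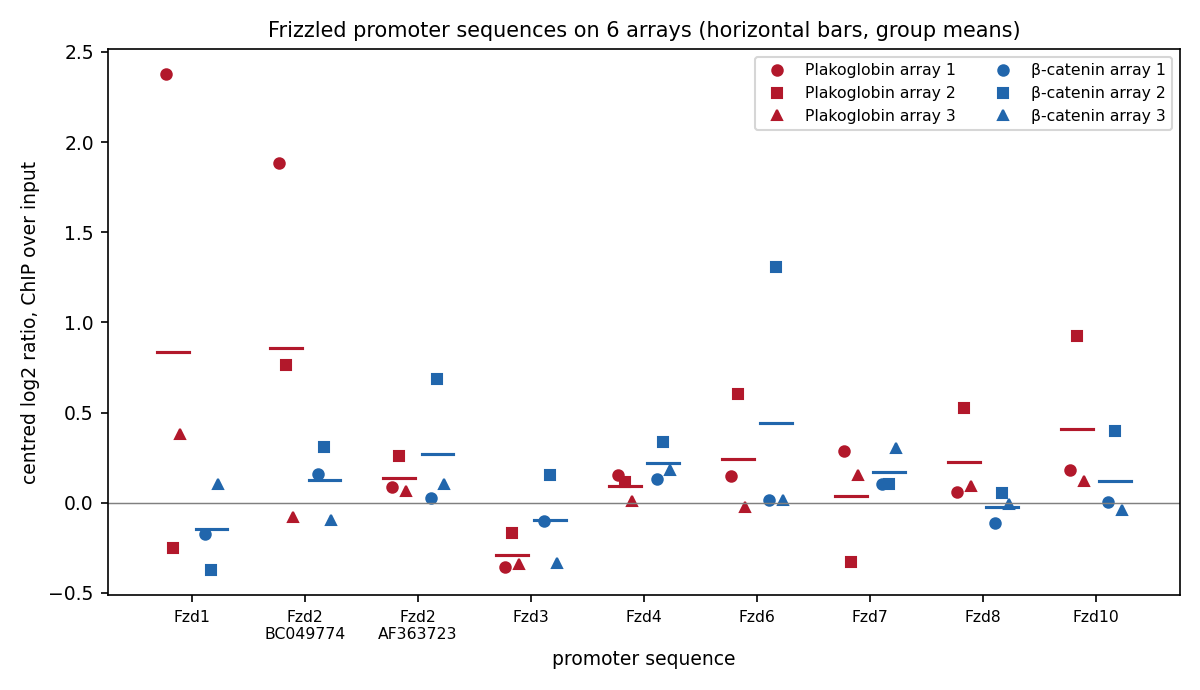
Centred log2 ratio of ChIP over input (vertical axis) at the 9 Frizzled promoter sequences (horizontal axis) on 3 Plakoglobin arrays (red) and 3 β-catenin arrays (blue), with the array number given by the symbol and the group mean by a bar. Fzd1 reached 2.38 and the first Fzd2 sequence 1.88 on Plakoglobin array 1, and Fzd6 reached 1.31 on β-catenin array 2.

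The first comparison asks whether Plakoglobin ratios over input at Frizzled promoters differed from those of the median promoter. The highest ratios were at Fzd1, a receptor that can signal through β-catenin, and at Fzd2, a receptor for Wnt5a among others, but each was carried by 1 or 2 arrays. Fzd1 had 2.38, -0.25 and 0.38 on Plakoglobin arrays 1 to 3, a mean of 0.84 ± 1.37. Array 1 was high, array 3 moderately above the median promoter and array 2 below it.

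Fzd1 ranked above 97.6% of all promoters on Plakoglobin array 1, 29.9% on array 2 and 89.7% on array 3. On array 1 the mean and the median over its probes, before centring, were close (2.61 and 2.70, SD over probes 1.37), so the high mean did not rest on a few probes. Without Plakoglobin array 1 the Fzd1 mean was 0.065.

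Fzd2 is represented by 2 sequences whose start sites lie 1116 bp apart on chromosome 11, in the files' coordinates. The sequence at the first start site (accession BC049774, position 102275657) had 1.88, 0.76 and -0.08 on Plakoglobin arrays 1 to 3, a mean of 0.86 ± 0.98. It was high on array 1, lower on array 2 and below the median promoter on array 3, where it ranked above 34.5% of promoters. The sequence at the second start site (AF363723, position 102276773) had 0.09, 0.26 and 0.07, a mean of 0.14 ± 0.10.

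Both Fzd2 sequences were at or above the median promoter on arrays 1 and 2, and the large ratio of array 1 was seen at the first start site only. There the mean over probes exceeded the median, 2.11 against 1.21 on array 1 and 1.21 against 0.78 on array 2, before centring, with SDs over probes of 1.93 and 1.10. Without Plakoglobin array 1 the mean of this sequence was 0.34, and over all 3 arrays it was 0.53 with the median over probes and 0.53 with quantile normalization.

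Fzd10, another Wnt receptor, had 0.18, 0.93 and 0.12 on Plakoglobin arrays 1 to 3, a mean of 0.41 ± 0.45. It was above 0 on all 3, with array 2 the highest. Fzd8, a Wnt receptor whose ligand-binding domain was crystallised with a Wnt protein, had 0.06, 0.53 and 0.10, a mean of 0.23 ± 0.26. Fzd6 had 0.15, 0.60 and -0.03, a mean of 0.24 ± 0.32. Array 2 gave the highest value at all 3 genes, and without it their means were 0.151 for Fzd10, 0.077 for Fzd8 and 0.062 for Fzd6. With the median over probes the Fzd10 mean was 0.22.

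Fzd4, the receptor for norrin in retinal vessels as well as for Wnt proteins, had the steadiest ratio, 0.15, 0.12 and 0.01, a mean of 0.09 ± 0.08. Fzd7, a receptor known from stem cells of several epithelia, had 0.29, -0.33 and 0.15, a mean of 0.04 ± 0.32. Fzd7 lay on both sides of the median promoter. Fzd3, which acts with Fzd6 in planar polarity, was the 1 Frizzled promoter below 0 on all 3 Plakoglobin arrays, with -0.36, -0.17 and -0.34 and a mean of -0.29 ± 0.10. It ranked above 5.65%, 36.4% and 10.0% of promoters on arrays 1 to 3.

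As a family, 8 of 9 sequences had a Plakoglobin mean above 0, against 56.6% of all promoters, with a median of 0.23 against 0.05. On all 3 arrays 4 of 9 lay above 0, against 16.8%, and 1 of 9 below, against 16.3%. The family median fell to 0.081 without Plakoglobin array 2, and it was 0.065 on array 3 alone against 0.15 and 0.26 on arrays 1 and 2. The 2 Fzd2 sequences neighbour each other and are not independent.

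No Frizzled promoter differed from the median promoter at the threshold, an adjusted p of 0.05. The test was limma on the centred ratios with Benjamini-Hochberg adjustment over all promoters, and no other promoter passed (0%, 0 of 26200). At an unadjusted p under 0.05 in this centred fit there were 0 of 9 Frizzled promoters, where 1.64% of all promoters were higher and 2.14% lower. The Frizzled adjusted p-values ran from 0.696 to 0.935. The smallest unadjusted p was 0.056 at Fzd3, followed by 0.0696 at the first Fzd2 sequence and 0.112 at Fzd1. With the replicate number as a block Fzd3 had an unadjusted p of 0.0202 in limma. That fit takes the differences between array numbers out of the error, so its p-values over input do not measure that spread. In that fit 2834 of 26200 promoters were lower and 268 higher at an unadjusted p under 0.05, and no promoter passed after adjustment in that fit either (lowest adjusted p over all promoters = 0.159). Without centring, which sets the ratios against input itself, some Frizzled promoters had an unadjusted limma p under 0.05 with either antibody. They are given in the last section.

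Ordered by their Plakoglobin mean, the sequences ran from the first Fzd2 sequence and Fzd1 over Fzd10, Fzd6, Fzd8, the second Fzd2 sequence and Fzd4 to Fzd7 and Fzd3. Neighbours in this order differed by less than the larger of their SDs, except Fzd7 and Fzd3, where the gap of 0.325 exceeded the SD of 0.324 by little. The sequences are read by different probes, so the order describes these arrays.

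The next question was whether β-catenin ratios over input at these promoters differed from those of the median promoter. Fzd6 was highest, with 0.01, 1.31 and 0.01 on β-catenin arrays 1 to 3, a mean of 0.44 ± 0.75. Array 2 alone was high, where Fzd6 ranked above 99.2% of promoters, and the probe mean and median were close (1.75 and 1.65, before centring). Fzd6 had no peak on that array, and without it the mean was 0.013.

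The second Fzd2 sequence followed with 0.03, 0.69 and 0.10, a mean of 0.27 ± 0.36, which was 0.065 without β-catenin array 2. The first had 0.16, 0.31 and -0.10, a mean of 0.12 ± 0.21, which was 0.032 without that array. The order of the 2 Fzd2 sequences was thus the opposite of that with Plakoglobin, with each difference smaller than the larger SD.

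Fzd4 had 0.13, 0.34 and 0.18 with β-catenin, a mean of 0.22 ± 0.11, and Fzd7 had 0.10, 0.10 and 0.31, a mean of 0.17 ± 0.12. These ratios were small but above the median promoter on all 3 arrays, and Fzd4 ranked above 86.2%, 73.8% and 79.5% of promoters. Fzd10 had 0.01, 0.40 and -0.04, a mean of 0.12 ± 0.24.

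Fzd8 had -0.11, 0.05 and -0.01, a mean of -0.02 ± 0.08, and Fzd3 had -0.10, 0.15 and -0.34, a mean of -0.09 ± 0.25. Fzd1, among the highest with Plakoglobin, was lowest with β-catenin, at -0.17, -0.37 and 0.10 and a mean of -0.15 ± 0.24. It lay above the median promoter on β-catenin array 3 only.

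Of the 9 sequences 6 had a β-catenin mean above 0, against 51.4% of all promoters, with a median of 0.12 against 0.008. On all 3 arrays 4 of 9 were above 0, against 16.3%. The family median was 0.013 without β-catenin array 2. In limma on the centred ratios 0 of 9 passed the threshold, as did 0% of all promoters. An unadjusted p under 0.05 was found at 0 of 9, where 0.26% of all promoters were higher and 1.5% lower. With the replicate number as a block these were 55 promoters higher and 2414 lower, and again 0 of 9 Frizzled promoters. The limit given above for the block fit holds here too. Frizzled adjusted p-values ran from 0.894 to 0.990. Neighbours in the order of the β-catenin means, from Fzd6 to Fzd1, all differed by less than the larger of their SDs.

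Array number 2 gave the highest value with Plakoglobin for 5 of 9 sequences and with β-catenin for 7 of 9. It was the highest with both at 5 of 9 (the second Fzd2 sequence, Fzd3, Fzd6, Fzd8 and Fzd10), against 23.3% of all promoters. The arrays numbered 2 have the larger probe SDs given above, and their part in these values was not tested. Fzd4 and the second Fzd2 sequence were above 0 on 6 of 6 arrays, 2 of 9, against 6.99% of all promoters.

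**Figure D2:**
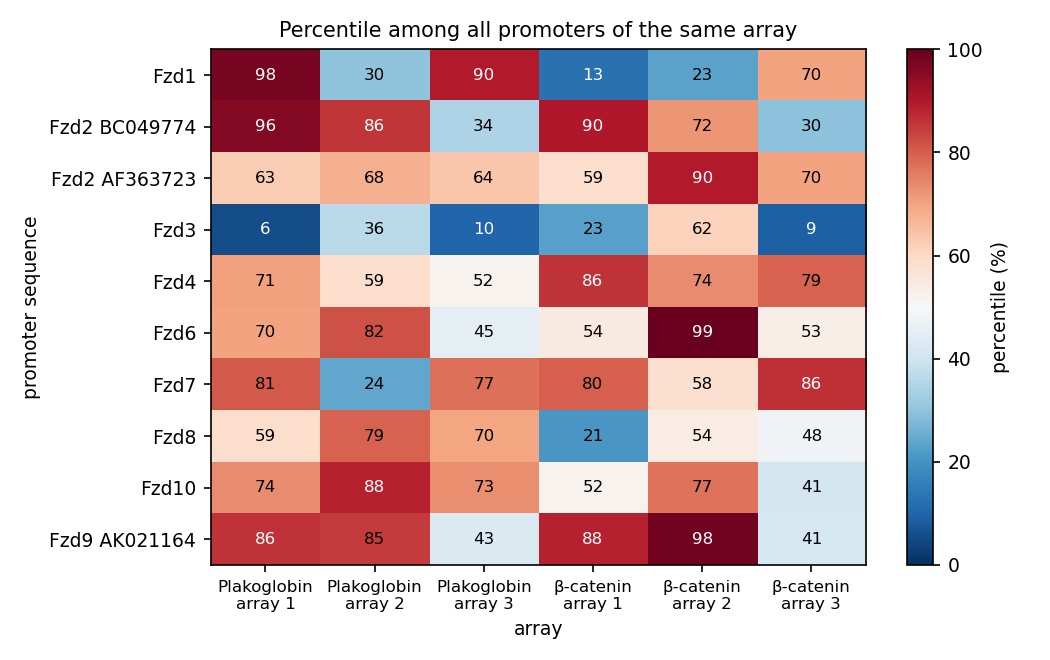
Percentile of each promoter sequence (rows) among all promoters of the same array (columns), from 0 (blue) to 100 (red), with Fzd9 AK021164 as named by a peak list in the last row. Fzd1 and the first Fzd2 sequence stand above 95 on Plakoglobin array 1 only, Fzd6 at 99 on β-catenin array 2 only, and Fzd3 at 10 or below on 3 of 6 arrays.

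The third comparison, named in the study's design, sets Plakoglobin against β-catenin. Fzd1 had the largest difference, 0.98 higher with Plakoglobin (SE 0.66, 95% interval -0.55 to 2.51). Within numbers 1, 2 and 3 it was 2.55, 0.12 and 0.28. All 3 pairs had the same sign, with the largest difference in the arrays numbered 1, and without Plakoglobin array 1 the difference was 0.21.

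The first Fzd2 sequence was 0.73 higher with Plakoglobin (SE 0.57, interval -0.60 to 2.07), with 1.72, 0.45 and 0.02 within numbers 1 to 3. It was 0.22 without Plakoglobin array 1, 0.27 with the median over probes and 0.32 with quantile normalization. Fzd10 was 0.29 higher (SE 0.33, interval -0.48 to 1.05), with 0.18, 0.53 and 0.16. It was 0.030 without Plakoglobin array 2 and 0.013 with the median over probes. The number with the largest difference thus was 1 at Fzd1 and Fzd2 and 2 at Fzd10.

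Fzd8 was 0.25 higher (SE 0.22, interval -0.26 to 0.75), with 0.17, 0.47 and 0.10 within numbers. Without Plakoglobin array 2 the difference was 0.098, and with the median over probes 0.14. Fzd8 was the 1 of 9 sequences whose groups did not overlap after centring, against 2.57% of all promoters in this direction and 2.57% in the other. The lowest Plakoglobin value, 0.058, lay 0.004 above the highest β-catenin value, 0.054, and before centring the groups overlapped at all 9 sequences.

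The other 5 sequences had differences below 0, and all of their intervals spanned 0. Fzd6 had -0.20 (SE 0.45, interval -1.25 to 0.84), Fzd3 -0.19 (SE 0.18, interval -0.62 to 0.23) and Fzd7 -0.13 (SE 0.23, interval -0.68 to 0.41). The second Fzd2 sequence had -0.14 (SE 0.27, interval -0.77 to 0.50) and Fzd4 -0.13 (SE 0.21, interval -0.61 to 0.36). Signs at Fzd6 and the second Fzd2 sequence turned without β-catenin array 2, to 0.23 and 0.072, and at Fzd7 without Plakoglobin array 2, to 0.049.

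Plakoglobin exceeded β-catenin in all 3 number pairs at 4 of 9 sequences, against 10.6% of all promoters, and lay below it in all 3 at Fzd3 alone, against 12.3%. The median difference over the 9 sequences was -0.13, against 0.01 over all promoters. It turned to 0.23 without β-catenin array 2 and to 0.030 without Plakoglobin array 2. In limma 0 of 9 Frizzled promoters and 0% of all promoters passed in either direction, and the smallest Frizzled adjusted p was 1.00. At an unadjusted p under 0.05 there were 0 of 9, where 0.569% of all promoters were higher and 0.16% lower with Plakoglobin. The lowest unadjusted p was 0.175, at Fzd1, and 0.159, also at Fzd1, with the number as a block (adjusted p = 0.890). The intervals at Fzd1 and at the first Fzd2 sequence are wide, with SEs above the median SE of 0.289 over all promoters, and they allow differences from below 0 up to the upper bounds given.

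**Figure D3:**
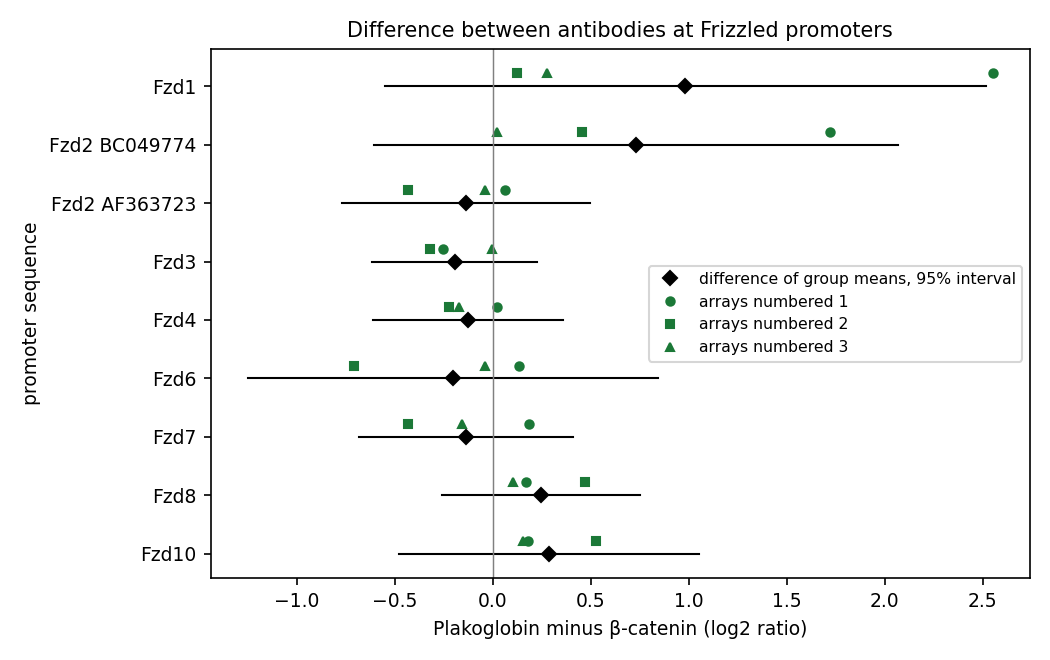
Difference between Plakoglobin and β-catenin in the log2 ratio (horizontal axis) at the 9 Frizzled sequences (rows), as the difference of group means with its 95% interval from limma (black) and within each array number (green). All 9 intervals span 0 in this fit, which does not use the number as a block. The arrays numbered 1 stand apart at Fzd1 (2.55) and at the first Fzd2 sequence (1.72).

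Peaks were called by the authors on each array, and a peak is listed under every nearby start site. Plakoglobin peaks were listed for 3 of the 8 Frizzled genes, Fzd1, Fzd2 and Fzd10. By accession these were 4 of 9, against 30% of all 22505 accessions. The scores and false discovery rates below are the authors' values.

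The Fzd1 peak was found on Plakoglobin array 1, on chromosome 5 from 4765060 to 4765539 in the files' coordinates, 371 to 850 bp upstream of the listed start site. Its score of 3.54 (false discovery rate 0.00563) was above 73.6% of the peaks of that array. It was the highest-ranking Frizzled peak within its list. The Fzd10 peak was found on Plakoglobin array 2, on chromosome 5 from 126154980 to 126155309, 970 to 1299 bp upstream of the start site. Its score was 2.72 (false discovery rate 0.0126), above 37.8% of that list.

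Fzd2 had a peak on 2 of 3 Plakoglobin arrays, which counts for both of its accessions, 2 of 9, against 4.41% of all accessions. The peak of array 1 spanned 102274768 to 102275247 on chromosome 11, 410 to 889 bp upstream of the first start site, with a score of 2.14 and a false discovery rate of 0.0416. The peak of array 2 spanned 102275618 to 102275757, from 39 bp upstream to 100 bp downstream of that start site, with a score of 2.19 and a false discovery rate of 0.105. The intervals did not overlap and were 370 bp apart, which is less than the 500 bp to which the DNA was sheared, so these arrays do not settle whether the positions differ.

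At the second Fzd2 start site, under which the authors list the same peaks, they lay 1526 to 2005 bp and 1016 to 1155 bp upstream, and its own ratios on those arrays were 0.09 and 0.26. With a false discovery rate of at most 0.05 only the peak of array 1 remained at Fzd2. No gene other than the Frizzled gene itself was listed under any of these peaks.

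No β-catenin peak was listed under any of the 9 Frizzled accessions, where 13.4% of all accessions had a peak on at least 1 β-catenin array and 0.711% on at least 2. β-catenin arrays 1 and 2 had short lists, 436 and 330 peaks, against 1739 to 2684 on the Plakoglobin arrays, and β-catenin array 3 had 1958.

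**Figure D4:**
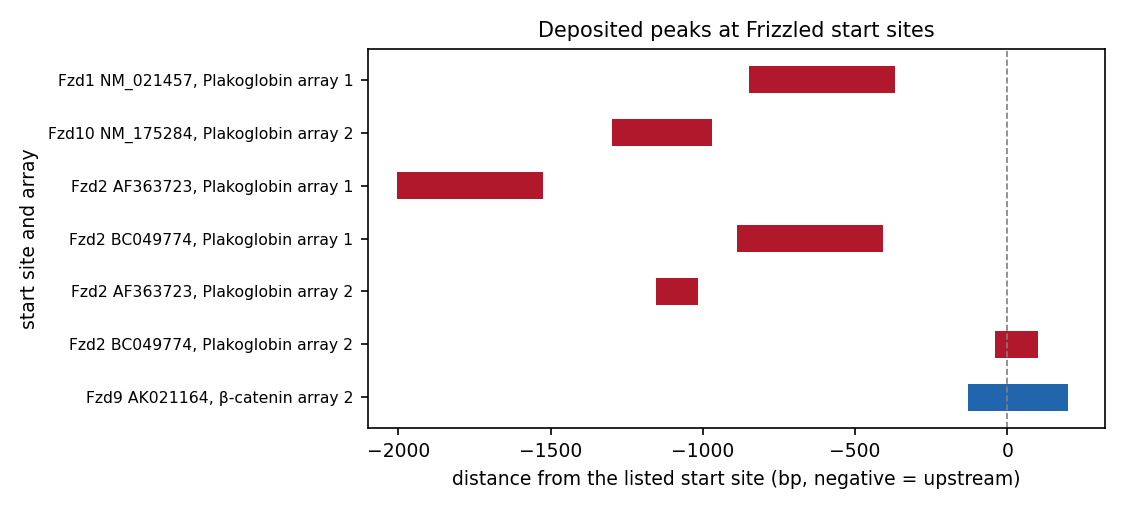
Position of the deposited peaks relative to the listed start site (horizontal axis, in bp, negative upstream, dashed line at the start site) for each Frizzled start site and array, with Plakoglobin in red and β-catenin in blue. The Fzd1 peak and the first-start-site Fzd2 peak of array 1 lie 371 to 889 bp upstream, while the Fzd2 peak of array 2 and the Fzd9 peak span the start site.

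The sequence with accession AK021164 carries no gene symbol in the promoter tables. The authors' peak list assigns it to Fzd9, a receptor studied in bone and the hippocampus, and it has this name here only because it has a peak, so it was not counted with the family. The peak was found on β-catenin array 2, on chromosome 5 from 132696139 to 132696468, from 130 bp upstream to 199 bp downstream of the listed start site. Its score of 2.15 (false discovery rate 0.177) was above 49.1% of that list, and it would not be kept at a false discovery rate of 0.05. The ratios were 0.15, 1.15 and -0.04 on β-catenin arrays 1 to 3 and 0.47, 0.72 and -0.04 on Plakoglobin arrays 1 to 3. Arrays 2 were the highest with both antibodies, as at Fzd6, and the means were 0.42 ± 0.64 and 0.39 ± 0.39.

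Other genes that act with Frizzled receptors were described from 4 lists, of which 38 of 45 genes had a named promoter. For a gene with several promoter sequences, such as Smo with 2, values and peaks are those of the first listed sequence only. In limma 0 of the 38 passed in any of the 3 comparisons, in either direction, and 0 had an unadjusted p under 0.05. Plakoglobin means were above 0 for 25 of 38 (median 0.12), against 56.6% of all promoters, and β-catenin means for 26 of 38 (median 0.14), against 51.4%. Plakoglobin peaks were listed for 7 of 38, against 30% of all accessions, and β-catenin peaks for 2 of 38, against 13.4%.

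In the list of co-receptors and other Wnt receptors 6 of 7 had a Plakoglobin mean and 7 of 7 a β-catenin mean above 0 (medians 0.14 and 0.27). That list also holds Smo, which is not a Wnt receptor. On all 3 arrays 2 and 3 of 7 were above 0, against 16.8% and 16.3% of all promoters. Lrp6, with Lrp5 the co-receptor of Frizzled, had 0.21 ± 0.29 with Plakoglobin and 0.36 ± 0.50 with β-catenin, above 0 on 6 of 6 arrays. Lrp5 had -0.03 ± 0.14 and 0.16 ± 0.16. Ror2, a receptor tyrosine kinase for Wnt5a, had 0.33 ± 0.37 and 0.33 ± 0.34, and Ryk, a Wnt receptor related to kinases, had 0.09 ± 0.32 and 0.00 ± 0.29 with a Plakoglobin peak on 1 array. Smo, a receptor of the same class that transmits Hedgehog signals, had 0.12 ± 0.20 and 0.05 ± 0.30. The difference between antibodies at Lrp5, -0.19 (SE 0.19, interval -0.64 to 0.26), exceeded both of its SDs but its interval spanned 0, and at the other 4 genes it was smaller than the SDs.

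Of the Frizzled turnover and R-spondin genes 4 and 3 of 6 were above 0 (medians 0.08 and 0.08), without a peak. Rnf43, a ubiquitin ligase that removes Frizzled from the cell surface, had 0.01 ± 0.07 and -0.07 ± 0.09, and its relative Znrf3 was not analysed here. In the list of secreted antagonists and other Frizzled ligands 8 and 10 of 16 were above 0 (medians -0.03 and 0.12). That list also holds some membrane proteins that are neither secreted nor Frizzled ligands. Plakoglobin peaks were listed for 3 of its 16 genes, against 30% of all accessions, and β-catenin peaks for 2, against 13.4%. Sfrp1 and Frzb, secreted proteins with a Frizzled-like domain that bind Wnt proteins, had 0.12 ± 0.14 and 0.24 ± 0.43, and 0.23 ± 0.54 and 0.00 ± 0.18. Dkk1, an antagonist that binds Lrp6, had -0.09 ± 0.32 and -0.19 ± 0.39.

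Dishevelled and planar polarity genes had 7 and 6 of 9 above 0 (medians 0.21 and 0.09). Plakoglobin peaks were listed for 3 of these 9, near the share of 30% of all accessions. They were the Dishevelled genes Dvl2 (on 2 arrays) and Dvl3 and the polarity gene Prickle2 (on 1 array each). Peaks on at least 2 Plakoglobin arrays were listed for 1 of 9, against 4.41% of all accessions. These 3 genes are named because of their peaks. β-catenin peaks were listed for 0 of 9, against 13.4% of all accessions.

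The gene of norrin, Ndp, the Fzd4 ligand that is no Wnt protein, belongs to the list of antagonists and ligands and was chosen after its values were seen, with 0.73, 0.28 and 3.67 on Plakoglobin arrays 1 to 3 and peaks on 2. On β-catenin arrays it had -0.24, 1.82 and 0.01 with a peak on 1. Fzd4 itself had no peak with either antibody.

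**Figure D5:**
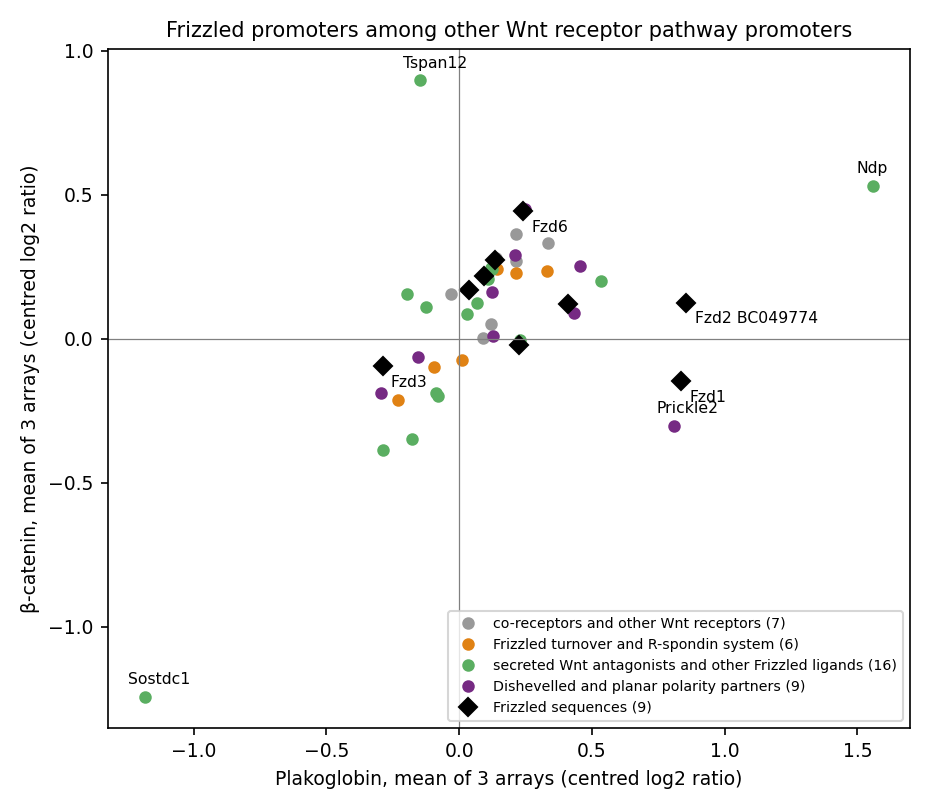
Mean centred log2 ratio over 3 Plakoglobin arrays (horizontal axis) against that over 3 β-catenin arrays (vertical axis) for the 9 Frizzled sequences (diamonds) and 38 genes of 4 other Wnt receptor lists (circles), with some outlying genes labelled after their values were seen. Fzd1 and the first Fzd2 sequence lie to the right, with Plakoglobin means of 0.84 and 0.86 and β-catenin means of -0.15 and 0.12.

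The promoters of other named genes whose 6 ratios were nearest to those of Fzd1 and of the first Fzd2 sequence were found by Euclidean distance over the 6 centred arrays, as a description. For Fzd1 they were Mrc1, Homez and Cd93, at distances of 0.263, 0.297 and 0.342. Each was high on Plakoglobin array 1 (2.34, 2.43 and 2.51), below 0 on Plakoglobin array 2 (-0.22, -0.20 and -0.17) and had 1 Plakoglobin peak. For Fzd2 they were Stk25, Zfp335 and Eef1a1, at 0.252, 0.326 and 0.334. These had 1.77, 1.98 and 1.83 on Plakoglobin array 1 and 0.96, 0.79 and 0.95 on array 2, with Plakoglobin peaks on 2, 2 and 1 arrays. The 6 points of each promoter share their arrays, and with 26200 promoters some lie near any pattern.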

How the data were processed

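Promoter occupancy was measured on 6 two-colour arrays, 3 per antibody, with input DNA in the second channel. Per the file headers, the deposited tables hold NimbleGen log2 values per promoter sequence, with the mean, the median and the spread (SD) of its probes. The normalization of probe values and the genome build are not given in the sources used here. Of 26275 sequences 75 had no value. Peaks were deposited for each array. Per the file headers the algorithm was NimbleGen's, and each peak has a score, whose scale is unstated, and a q-value (the false discovery rate) of 0.199 or less.

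Here each array was centred on its median, and limma 3.58.1 (R 4.3.3) estimated the mean of each antibody from the 6 arrays together (eBayes with a trend, two-sided, Benjamini-Hochberg over 26200 promoters). On simulated data the fit was checked for recovering known shifts on average. Calls were required only at a spread far below the real one, so that check sets no sensitivity for these arrays. Symbols were updated through RefSeq (GRCm38.p6, names only), 12527 by accession. Distances run from the listed start site to the edges of a peak, except the 500 bp limit below, which used the peak centre. The number of arrays limits precision.

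Array numbers come from the labels, which do not say what they share. Since the deviations of same-numbered arrays correlated above 0.1 in all 3 pairs (0.203, 0.235 and 0.218), differences within numbers are given. The labels state no pairing, so the SEs, intervals and p-values of the main fit leave it out. The fit with the number as a block is an alternative. Its SE of the difference was smaller at each Frizzled sequence, such as 0.119 against 0.180 at Fzd3. The text names every Frizzled sequence, 10 fixed pathway genes, and the 3 nearest promoters to Fzd1 and Fzd2. Ndp, Dvl2, Dvl3 and Prickle2 are not among the fixed genes and are named for their values or peaks. Members and lists were chosen with earlier results of these data known. Tables and figures were made with Python 3.11.15 (pandas 2.3.3, numpy 2.4.6, matplotlib 3.10.9).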

Additional observations from a re-analysis of the deposited data

How the results depend on the processing

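Under all 14 alternative fits 0 promoters passed the threshold in any of the 3 limma comparisons (lowest adjusted p = 0.137, for the difference without β-catenin array 1). The replicate block takes the differences between array numbers out of the error, so over input its p-values do not measure that spread. It changed no call at a Frizzled promoter, and the median difference under it was -0.13. It moved the number of all promoters with an unadjusted p under 0.05, with Plakoglobin from 429 higher and 561 lower to 268 and 2834, with β-catenin from 68 and 392 to 55 and 2414, and for the difference from 149 and 42 to 186 and 121. Without centring these numbers were 3356 and 1, 1634 and 18, and 159 and 15, in the same order. With quantile normalization they were 385 and 562, 382 and 460, and 174 and 80, and with MAD scaling 526 and 589, 254 and 872, and 162 and 55.

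Without centring, the family medians were 0.52 with Plakoglobin and 0.38 with β-catenin, since the array medians were 0.148 to 0.447, and the signs turned at Fzd3 (0.0017 with Plakoglobin and 0.16 with β-catenin) and, with β-catenin, at Fzd1 (0.11) and Fzd8 (0.24). With the median over probes the sign turned for the median difference (0.0093), which is that of Fzd7 (0.0093), and for Fzd8 with β-catenin (0.049). Leaving out 1 array gave family medians of 0.081 to 0.29 with Plakoglobin, 0.013 to 0.20 with β-catenin and -0.17 to 0.23 for the difference. It turned the sign of Fzd7 with Plakoglobin (-0.089 to 0.22), of Fzd10 (-0.017 to 0.20), Fzd3 (-0.22 to 0.027) and Fzd8 (-0.060 to 0.023) with β-catenin, and of the difference at Fzd7 (-0.26 to 0.049), the second Fzd2 sequence (-0.26 to 0.072) and Fzd6 (-0.42 to 0.23). The cause was not tested.

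Plakoglobin peaks at 4 Frizzled accessions fell to 1 when the peak centre had to lie within 500 bp of the start site. By their nearest edge, the Fzd1 peak (371 bp) and the array 1 peak at the first Fzd2 start site (410 bp) also lay within 500 bp. With 1 array left out the accessions with a peak were 3 to 4. The 2 accessions with peaks on at least 2 arrays fell to 0 with a false discovery rate of at most 0.05. They also fell to 0 with the peak centre within 500 bp, and ranged from 0 to 2 with 1 array left out.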
